A study of Mus musculus with 120 samples.

Results

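Complement and coagulation factors are plasma proteins made largely by hepatocytes. Their transcripts were followed in the livers of 60 F2-*ob/ob* mice, 31 females and 29 males, bred from C57BL/6J (B6) and BTBR. A probe set was included when the platform annotation attached to it the symbol of 1 of 34 factors and no other symbol. This gave 44 of the 45,037 probe sets analysed, 41 on the MOE430A array and 3 on MOE430B, for 32 genes. *C3* and *Cpb2* are not analysed here. All mice lacked leptin through the *ob* mutation, so no lean group enters any comparison. They ate Purina Formulab Chow 5008, were killed at 14 weeks of age after 4 h without food, and gave 1 array of each type. The mice were chosen from a larger F2 sample by their genotypes, and each was a separate animal.

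In complement, proteases are activated in turn on a target surface. The classical pathway starts from antibody, the lectin pathway from mannose-binding lectins and their proteases, and the alternative pathway from slow spontaneous activation. All of them lead to the terminal components, which assemble into a pore in the target membrane. In coagulation, protease precursors that need vitamin K, together with their cofactors, generate thrombin, which turns fibrinogen into fibrin. The contact factors give another way into the cascade, and plasmin dissolves the clot.

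The promoters of 7 members are printed here because the results below turn on these genes. *Hc*, which codes for complement C5, carried the strongest linkage. *C6*, *C8a* and *C8b* differed between the sexes, and *Fga*, *Fgb* and *Fgg* code for the chains of fibrinogen. Each is the RefSeq reference sequence of 300 bases on GRCm38.p6, from 250 bases before to 50 bases after the annotated start, written 5′ to 3′ on the strand of the gene. Capitals mark matches on either strand to GTTAAT (HNF1), CAAAGTCC (HNF4), TTGCNNAA (C/EBP), TTCNNNGAA (STAT5) or ATCAAT (HNF6). These are motifs of factors known from liver.
*Hc* promoter, chr2:35061363-35061662, minus strand: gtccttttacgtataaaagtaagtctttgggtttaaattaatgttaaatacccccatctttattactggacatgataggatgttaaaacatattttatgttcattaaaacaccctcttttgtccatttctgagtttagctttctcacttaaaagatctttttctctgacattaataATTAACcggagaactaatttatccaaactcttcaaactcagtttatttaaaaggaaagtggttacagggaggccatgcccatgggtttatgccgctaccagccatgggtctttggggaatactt
*C6* promoter, chr15:4726960-4727259, plus strand: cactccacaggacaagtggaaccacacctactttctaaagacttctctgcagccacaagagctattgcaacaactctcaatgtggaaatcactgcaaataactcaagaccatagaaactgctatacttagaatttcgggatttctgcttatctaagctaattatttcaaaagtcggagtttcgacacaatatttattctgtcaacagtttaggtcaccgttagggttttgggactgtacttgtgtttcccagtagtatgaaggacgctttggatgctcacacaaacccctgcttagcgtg
*C8a* promoter, chr4:104876349-104876648, minus strand: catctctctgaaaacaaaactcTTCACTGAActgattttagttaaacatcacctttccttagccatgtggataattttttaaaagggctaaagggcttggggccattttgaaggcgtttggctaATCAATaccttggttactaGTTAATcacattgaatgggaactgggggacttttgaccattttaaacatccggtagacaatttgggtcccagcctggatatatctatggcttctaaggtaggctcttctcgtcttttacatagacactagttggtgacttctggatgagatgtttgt
*C8b* promoter, chr4:104766067-104766366, plus strand: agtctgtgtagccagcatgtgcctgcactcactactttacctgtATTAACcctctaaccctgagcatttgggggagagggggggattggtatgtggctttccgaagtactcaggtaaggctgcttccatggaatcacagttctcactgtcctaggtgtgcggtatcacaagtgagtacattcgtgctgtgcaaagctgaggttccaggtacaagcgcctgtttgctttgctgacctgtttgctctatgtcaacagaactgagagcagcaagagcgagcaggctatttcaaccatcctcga
*Fga* promoter, chr3:83025903-83026202, plus strand: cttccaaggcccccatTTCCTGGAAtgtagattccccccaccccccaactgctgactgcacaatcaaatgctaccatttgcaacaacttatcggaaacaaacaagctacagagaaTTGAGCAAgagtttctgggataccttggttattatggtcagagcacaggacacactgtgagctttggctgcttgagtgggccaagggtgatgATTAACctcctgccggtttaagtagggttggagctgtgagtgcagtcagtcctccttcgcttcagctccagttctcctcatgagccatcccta
*Fgb* promoter, chr3:83049814-83050113, minus strand: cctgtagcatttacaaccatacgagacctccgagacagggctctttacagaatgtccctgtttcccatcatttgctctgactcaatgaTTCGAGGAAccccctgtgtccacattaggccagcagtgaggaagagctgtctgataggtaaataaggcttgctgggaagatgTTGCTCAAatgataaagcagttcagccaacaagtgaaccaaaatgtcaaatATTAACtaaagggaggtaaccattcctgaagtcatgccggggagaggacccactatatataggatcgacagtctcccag
*Fgg* promoter, chr3:83007474-83007773, plus strand: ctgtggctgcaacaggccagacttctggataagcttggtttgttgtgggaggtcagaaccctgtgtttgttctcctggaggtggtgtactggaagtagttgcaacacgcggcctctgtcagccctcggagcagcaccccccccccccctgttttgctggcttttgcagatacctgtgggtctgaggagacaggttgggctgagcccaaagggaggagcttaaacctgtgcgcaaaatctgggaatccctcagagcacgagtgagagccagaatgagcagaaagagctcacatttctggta
A RefSeq promoter was at hand for 25 of the 32 genes. The HNF1 motif was found in 9 of the 25 (36%) and in 7.10% of all 32,851 promoters of that length. The STAT5 motif was found in 6 members (24%, against 8.30% of all), the C/EBP motif in 7 (28%, against 10.8%) and the HNF6 motif in 4 (16%, against 7.54%). The HNF4 motif was in none of the 25 and in 1.42% of all. *Fga* and *Fgb* each held the HNF1, C/EBP and STAT5 motifs, and *Fgg* held no match. *C8a* and *C8b* both held the HNF1 motif, and *C6* held no match. A match describes these letters only and is not a binding site.

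Expression is given as deposited log2 values. The level of 1 probe set is not set against that of another as an amount of RNA, since probes differ in how they bind. Of the 41 members on MOE430A, 37 lay above the median level of all MOE430A probe sets (7.04), and 25 lay above the 90th percentile. The fibrinogen chains and plasminogen (*Plg*, the precursor of plasmin) had the highest values. *Fgg* had a mean of 12.90 (SD 0.217, n = 60), *Fga* 12.67 and *Plg* 12.64. The lowest values on MOE430A came from 1 of the 3 probe sets of *F10* (1418992_at, mean 5.78) and from 2 of the 5 probe sets of *Masp1* (1438603_x_at, 5.81, and 1455346_at, 5.86). The remaining probe sets of these genes reached 10.75 for *F10* and 9.48 for *Masp1*. Which transcripts each of them reads was not tested. On MOE430B the means were 9.45 and 8.84 for *C2* and 7.59 for *Cfp*, the gene of properdin, which stabilises the alternative pathway convertase.

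The factors varied more between mice than most transcripts did. The median SD was 0.243 over the 44 probe sets and 0.123 over all probe sets. *Hc* had the largest SD (0.910), followed by *C8a* (0.685), *C8b* (0.568), *C9* (0.507) and *F9* (0.501). *Hc* ran from 7.67 to 11.25 with a median of 9.66, and *C8a* from 7.46 to 10.61 with a median of 9.13. *F2* (prothrombin) and *C8g* stayed within narrow ranges, with SDs of 0.145 and 0.147.

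Array medians lay between 6.97 and 7.09 on MOE430A and between 6.15 and 6.2 on MOE430B. Precision rests on how many mice were measured. The 16 probe sets of 7 hepatocyte marker genes had a median percentile of 99.9 among the levels of their array types. In bulk liver, fewer cells of a type and less RNA per cell cannot be told apart. In 1 male the mean level of the 7 probe sets of pancreatic acinar markers was 9.21, against 7.13 to 7.47 in the other 59 mice. A total of 6 other mice had an array that correlated less with the arrays of the same type. Their acute phase transcripts (12 probe sets) averaged 11.51, against 10.55 in the other 54.

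Linkage was then asked of each transcript, to find whether its level followed genotype on the chromosome that carries its own gene. Of the 41 autosomal probe sets, 6 had their highest LOD score of the genome on the own chromosome at 3.4 or greater (15%), against 2.97% of all 33,588 autosomal probe sets. These were *Hc*, *F12*, *Mbl1*, *Mbl2*, *Masp2* and *F11*. The rule used only the chromosome of a gene, since markers are placed in cM, so a peak need not lie at the gene. With own-chromosome p values adjusted over all autosomal probe sets, *Hc*, *F12*, *Mbl1* and *Mbl2* passed 0.05 (1.7% of all did), whereas *Masp2* and *F11* did not (adjusted p = 0.062 and 0.18). The same 4 had scores of 5 or greater, as 1.26% of all did. The median own-chromosome LOD score was 1.29 for the members and 1.11 for all. In 5 scans with permuted mice, 128 to 207 of all probe sets met the rule, against 998 in the data. *Cfp* and *F9* lie on Chromosome X, which had no marker, and were not tested for this.

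**Figure D1:**
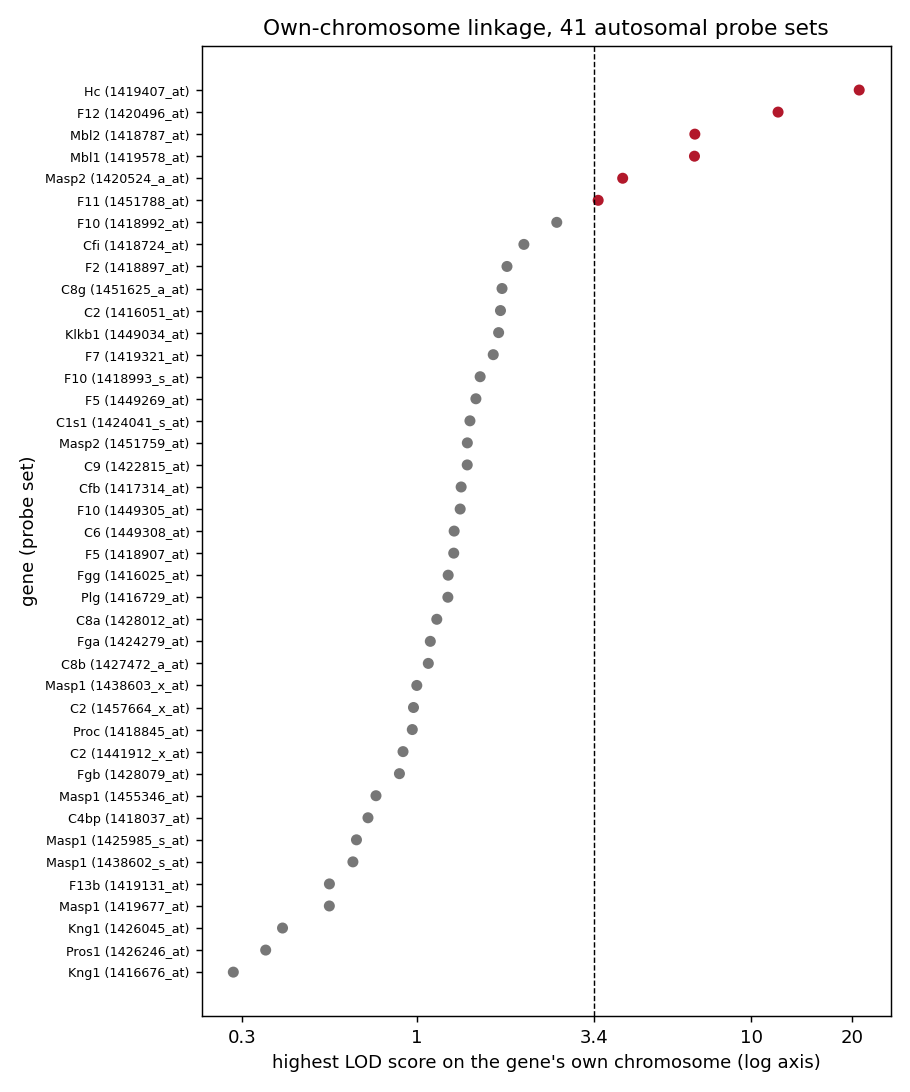
Highest LOD score on the gene's own chromosome (horizontal log axis) for the 41 autosomal probe sets, 1 point each. Red points are the 6 that met the rule, and the dashed line marks 3.4. *Hc* stands at 21.1 and *F12* at 12.0, with most members between 0.5 and 3.

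*Hc* showed the largest LOD score of the members, 21.06 at 25 cM on Chromosome 2 between D2Mit296 and D2Mit297 (adjusted p = 0.00087, permutation over own-chromosome scans). A drop of 1.5 in LOD score spanned 19.6 to 26.4 cM. The level in the 20 mice homozygous for the allele coded B ran from 7.67 to 9.11 with a median of 8.21. In the 27 heterozygotes it ran from 8.96 to 11.25 with a median of 9.75. In the 13 homozygotes for the allele coded A it ran from 9.67 to 10.89 with a median of 10.16. The homozygous groups did not overlap. Their means differed by 1.97 on the log2 scale, with A homozygotes 3.91-fold higher, and heterozygotes lay closer to A homozygotes (means 10.23, 9.78 and 8.26). The change per B allele was -1.05 ± 0.084 (SE, limma). The peak accounted for 80.1% of the variance. Effect sizes here and at the peaks below were taken where the LOD score was highest, so they may be too large. The SE per allele does not include the choice of that place. Leaving out each mouse in turn moved the LOD score only between 20.3 and 22.2. The letters A and B are those of the deposited genotypes, and no source used here says which founder strain each stands for.

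*F12*, factor XII, starts the contact pathway. It reached a LOD score of 12.04 at 40 cM on Chromosome 13, between D13Mit91 and D13Mit13 (adjusted p = 0.00087). The 16 A homozygotes ran from 10.45 to 11.15 (median 10.67), the 27 heterozygotes from 10.04 to 10.79 (median 10.45) and the 17 B homozygotes from 9.77 to 10.66 (median 10.06). The groups overlapped, and their means fell in even steps, from 10.77 through 10.47 to 10.12. A homozygotes were 1.57-fold higher than B homozygotes, and the peak accounted for 60.3% of the variance.

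Both mannose-binding lectins, which recognise sugars on microbes, followed genotype on their own chromosomes. *Mbl2* had a LOD score of 6.79 at 15 cM on Chromosome 19 (adjusted p = 0.0015). Its level had a median of 11.05 in 18 A homozygotes (10.29 to 11.34), 10.83 in 24 heterozygotes (10.45 to 11.18) and 10.60 in 18 B homozygotes (9.62 to 10.96). *Mbl1* had a LOD score of 6.77 at D14Mit14 on Chromosome 14 (adjusted p = 0.0074). Its level had a median of 10.58 in 10 A homozygotes (10.18 to 10.79), 10.39 in 30 heterozygotes (9.89 to 11.02) and 10.08 in 20 B homozygotes (9.26 to 10.50). For both lectins the B homozygotes were low and the groups overlapped. A homozygotes were 1.44-fold higher for *Mbl2* and 1.43-fold higher for *Mbl1*.

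*Masp2* codes for the protease that acts with these lectins. Its probe set 1420524_a_at had a LOD score of 4.13 at D4Mit190, 97.7 cM on Chromosome 4. The means were 9.58 in 16 A homozygotes, 9.38 in 26 heterozygotes and 9.28 in 18 B homozygotes (SD 0.171, 0.225 and 0.160). The other *Masp2* probe set, 1451759_at, reached only 0.31 at the same place, with means of 7.47, 7.50 and 7.55. The correlation of these probe sets across the mice was 0.06. Which *Masp2* transcripts each probe set reads was not tested.

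*F11*, factor XI of the contact pathway, lay just over the threshold, with a LOD score of 3.49 at D8Mit249, 58.1 cM on Chromosome 8. Here heterozygotes were highest. Their mean was 7.56 (SD 0.202, n = 22), against 7.30 (SD 0.225, n = 13) in A homozygotes and 7.37 (SD 0.175, n = 25) in B homozygotes. The change per B allele was 0.003 ± 0.036 (SE). The call was lost when any of 32 single mice was left out, and it fell to 2.92 without the 6 mice with an array apart. Of the 6 genes only *Masp2* had another probe set. For *Hc*, *F12*, *Mbl1* and *Mbl2*, a difference in transcript level and a difference in how the alleles bind the probes cannot be told apart.

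**Figure D2:**
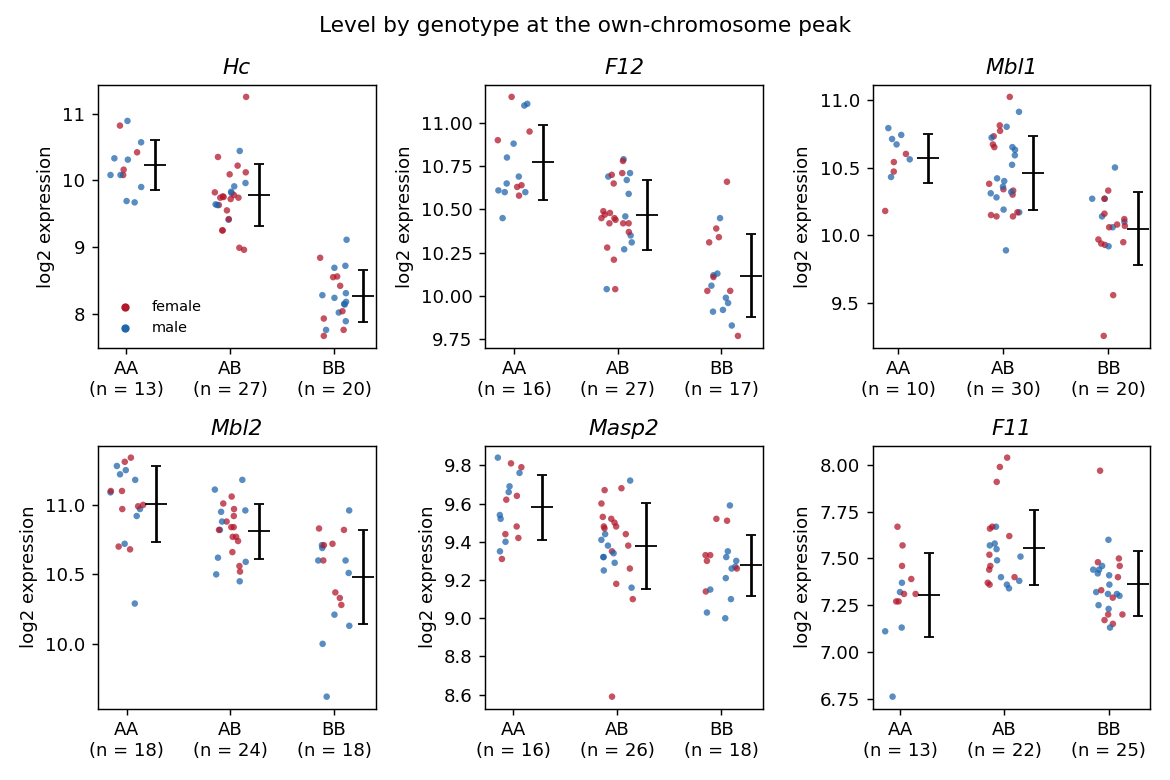
Log2 expression (vertical axes, each with its own range) of the 6 own-linked genes by the most likely genotype at the peak. Each point is a mouse (red female, blue male), and black marks give mean ± SD. In *Hc* the BB mice lie at 9.11 or lower and the AA mice at 9.67 or higher, and in *F11* the AB mice have the highest mean.

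Genotype effects were compared between females and males by a sex by genotype term in limma. None of the 6 reached an adjusted p of 0.05 at its own peak, and unadjusted p values ran from 0.20 to 0.52. No probe set of the whole series passed this term at any of the 6 peaks. The lack of a call therefore does not show that genotype effects were alike in the sexes. For *Hc* the change per B allele was 0.22 ± 0.17 (SE) greater, that is less negative, in males. The median in B homozygotes was 8.23 in 8 females and 8.21 in 12 males.

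Some members followed genotype on a chromosome other than their own. Of the autosomal probe sets, 4 of 41 (9.76%) had such a peak at 3.4 or greater, against 13.2% of all, a share below the background. Permuted scans gave a peak anywhere for 9.73% of all probe sets on average, so single peaks of this height carry little weight. The highest was *C1s1*, the gene of a protease of the C1 complex, with a LOD score of 5.54 at 65 cM on Chromosome 10, where leaving out single mice gave 4.87 to 6.51. Its mean was 9.41 in 15 B homozygotes (SD 0.367), above the 8.96 of 34 heterozygotes (SD 0.331) and the 8.82 of 11 A homozygotes (SD 0.270). *C1ra*, a complement gene outside the members and also on Chromosome 6, had its highest score, 5.36, at 65.1 cM on Chromosome 10. Whether these peaks are separate evidence was not tested. *C8b* reached 4.13 at 50 cM on Chromosome 5, and 6.18 with sex as a covariate. In females its mean fell from 8.33 (n = 11) in A homozygotes to 7.57 (n = 11) in B homozygotes, and in males from 8.86 (n = 11) to 8.30 (n = 9). *C9* reached 3.70 at D8Mit249, the peak marker of *F11*, but its highest score with sex as a covariate was 3.63 on Chromosome 5. The probe set 1418993_s_at of *F10* reached 3.50 on Chromosome 5. Of the X-linked genes, *F9* (factor IX) reached 3.62 on Chromosome 4, and *Cfp* on MOE430B reached 4.88 on Chromosome 2. *Cfp* gave 3.46 there by Haley-Knott regression and 3.20 with markers only, and its genotype means (7.64, 7.55 and 7.60) lay within 0.1 of each other. Without the 6 mice with an array apart, *C8b* peaked at another place (Chromosome 12, 3.77), and *C9*, *F9* and this *F10* probe set fell below 3.4 (2.64, 2.42 and 2.33).

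Females and males were compared next. Transcripts of 3 terminal components were higher in males. These were *C8a*, *C8b* and *C6*, whose products are part of the membrane pore. They made up 6.82% of the 44 probe sets, against 0.411% of all probe sets higher in males, and no member was higher in females (1.03% of all). The 3 vary together, so they are not separate evidence. Across the mice r was 0.80 for *C8a* with *C8b*, 0.73 for *C6* with *C8b* and 0.67 for *C6* with *C8a*. Within the terminal pathway, 3 of 6 genes passed the test and *C9*, *C8g* and *Hc* did not. None of the genes of the coagulation cascade passed, which is near the 1.45% of all probe sets called in either direction.

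*C8a* ran from 7.46 to 10.10 in 31 females (median 8.79) and from 8.14 to 10.61 in 29 males (median 9.48). Males were 1.60-fold higher (log2 difference 0.68 ± 0.15 SE, limma adjusted p = 0.0074), and 28 of 29 males lay above the female median. *C8b* ran from 7.02 to 8.97 in females (median 7.95) and from 7.79 to 9.76 in males (median 8.61). The difference was 0.59 ± 0.12 (1.51-fold, adjusted p = 0.0040), and 13 females lay below every male. *C6* ran from 7.35 to 8.96 in females (median 7.61) and from 7.73 to 9.05 in males (median 7.96). The difference was 0.43 ± 0.090 (1.34-fold, adjusted p = 0.0056), and all 29 males lay above the female median. The sexes overlapped in all 3 genes.

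The other terminal components gave smaller or opposite differences. *C9*, which forms most of the pore, had means of 11.47 (SD 0.558) in females and 11.83 (SD 0.369) in males, and the difference of 0.37 ± 0.12 did not pass (adjusted p = 0.097). *C8g* had means of 12.30 and 12.24 (adjusted p = 0.39). *Hc* had means of 9.44 and 9.30 (adjusted p = 0.81), a difference far smaller than that between its genotypes. Outside the terminal pathway, the MOE430B probe sets of *C2*, the protease of the classical and lectin convertase, had log2 differences of 0.15 ± 0.051 and 0.15 ± 0.057 toward males (adjusted p = 0.11 and 0.17). The MOE430A probe set of *C2* had 0.068 ± 0.047 (adjusted p = 0.50). Without the 6 mice with an array apart, when 1.32% of all probe sets were called higher in males, both MOE430B probe sets passed (adjusted p = 0.019 and 0.027) and the MOE430A one did not. Without these mice prothrombin (*F2*) passed with lower values in males (log2 difference -0.12, adjusted p = 0.020), 1 of 44 probe sets, while 2.9% of all were then lower in males.

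The marker lists of other cell types held no probe set that differed between the sexes, against 1.45% of all probe sets. These lists are short, so the lack of a call is near that share. The mean level of the blood markers (2 probe sets) was 7.56 in females (7.16 to 7.88) and 7.68 in males (7.26 to 8.12). It correlated with *C8a*, *C8b* and *C6* at r = 0.54, 0.48 and 0.45, and its part in the sex difference was not tested. Without the male with high pancreatic markers, the differences of *C8a*, *C8b* and *C6* were 0.69, 0.59 and 0.43, each still past the threshold.

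**Figure D3:**
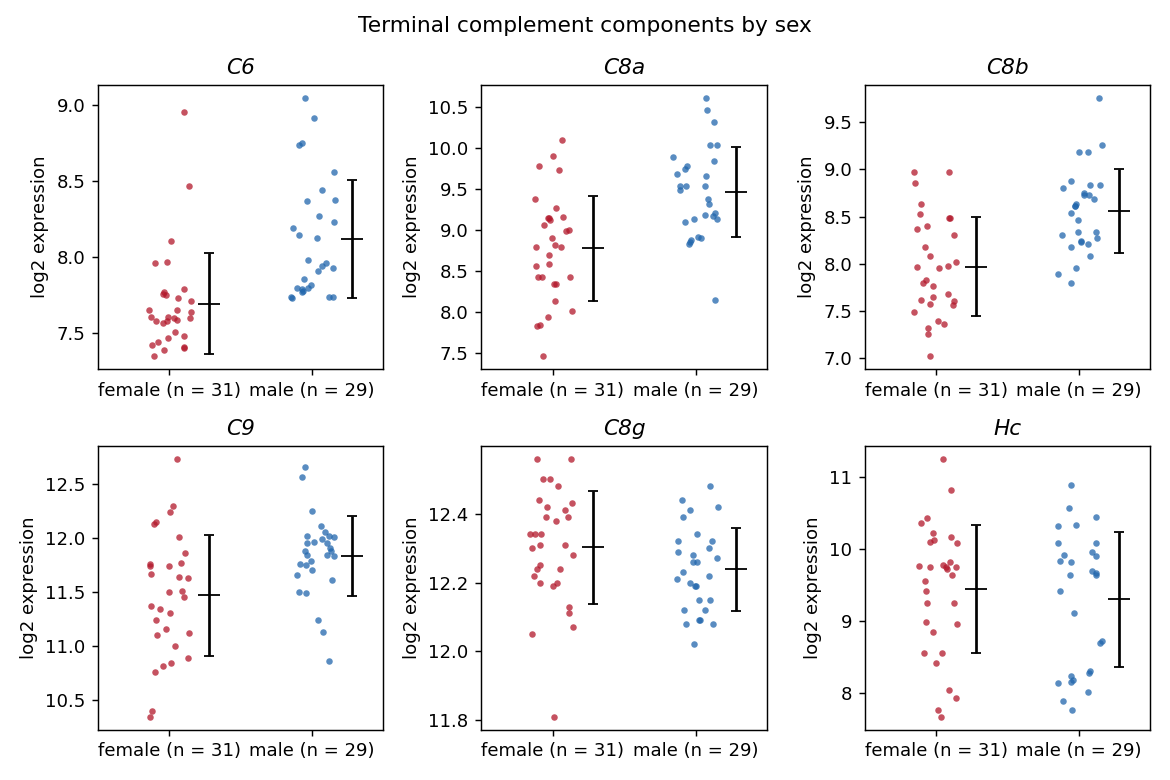
Log2 expression (vertical axes, each with its own range) of the 6 terminal complement genes in 31 females and 29 males. Each point is a mouse, and black marks give mean ± SD. *C6*, *C8a* and *C8b* are higher in males, by 0.43, 0.68 and 0.59 on the log2 scale, and *Hc* and *C8g* are not.

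The levels were then set against 9 phenotypes of the same mice, 396 relations in all, with p values adjusted over all probe sets for each phenotype. A single relation passed. *F7*, factor VII, which starts coagulation with tissue factor, was lower in mice with more liver triglyceride (r = -0.52, permutation p = 3e-05, Spearman's rho = -0.50, permutation p = 9e-05, n = 59, limma adjusted p = 0.020). Of all probe sets 0.0777% passed in this direction, and 0.147% in either. At an unadjusted p under 0.05, 7 members (15.9%) were found, against 8.54% of all. The change was -0.14 ± 0.029 (SE) per SD of liver triglyceride. In the 19 mice with the least triglyceride (85.3 to 430.4 mg/g) *F7* ran from 9.11 to 10.14 with a median of 9.55. In the 19 with the most (719.3 to 1014.8 mg/g) it ran from 8.60 to 9.73 with a median of 9.26. These groups overlapped, and the 21 mice between them had a median of 9.37. The correlation was -0.58 in 31 females and -0.45 in 28 males, neither of which passed alone over all probe sets (adjusted p = 0.21 and 0.39). It was -0.56 without the 2 mice farthest from the median triglyceride. With sex in the model the change was -0.14 and the adjusted p was 0.022.

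*Plg* had the next lowest p for liver triglyceride (r = -0.46, permutation p = 0.00015, rho = -0.45, permutation p = 0.00041, n = 59) and did not pass (adjusted p = 0.074). It passed when the first principal component was fitted too (adjusted p = 0.0070) and among probe sets above the median level (adjusted p = 0.045). Its medians were 12.74 and 12.55 in the mice with the least and the most triglyceride. Stellate cell markers (10 probe sets) correlated with *F7* at r = -0.42 and with liver triglyceride at r = 0.20, and their part in the relation was not tested. The 16 hepatocyte marker probe sets correlated with *F7* at -0.04.

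**Figure D4:**
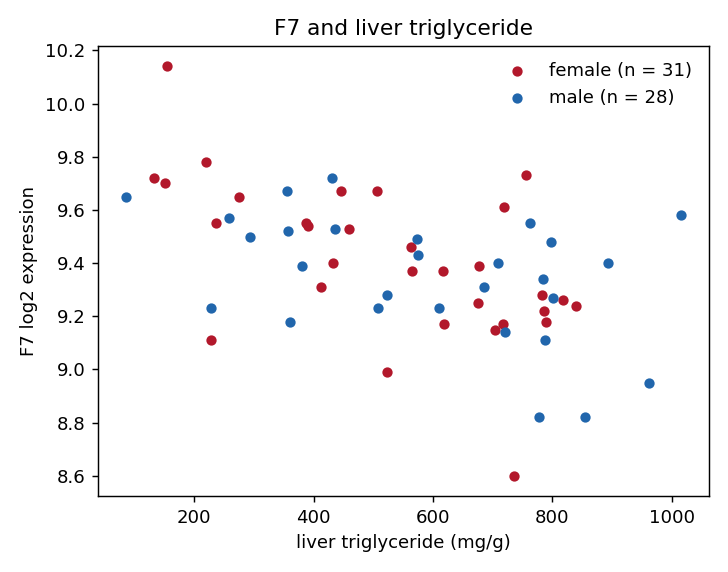
Log2 expression of *F7* (vertical axis) against liver triglyceride in mg/g (horizontal axis), 1 point per mouse (red female, blue male). The correlation over the 59 mice is -0.52, and it is negative in both sexes (-0.58 and -0.45).

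Glucose, insulin, plasma triglyceride and body weight gave no call among the members. Over all probe sets, 0.0244% passed for glucose and 0.0133% for insulin at 10 weeks, 0.00444% for plasma triglyceride at 8 weeks, and 0% for the other 5. Their lowest p values belonged mostly to the terminal components that differed between the sexes. *C8b* had r = 0.44 with plasma glucose at 10 weeks (rho = 0.41, permutation p = 0.00047 and 0.0012, n = 60, adjusted p = 0.099). For log10 insulin at 10 weeks it had r = -0.48 (rho = -0.39, permutation p = 0.00017 and 0.0033, n = 57, adjusted p = 0.092). Males also had the higher glucose (422 ± 111 mg/dl, SD, n = 29, against 295.6 ± 96 in 31 females) and the lower log10 insulin (1.24 ± 0.48, n = 28, against 1.51 ± 0.34, n = 29). Within the sexes, the correlation of *C8b* with glucose was 0.11 in females and 0.34 in males, and with insulin -0.27 and -0.51. *Hc*, for all its range, correlated with the 9 phenotypes at r between -0.30 and 0.20, with adjusted p values of 0.65 to 1.

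To ask whether the *Hc* locus moved the other factors, the remaining 43 probe sets were tested against the expected number of B alleles at its peak. None reached an adjusted p of 0.05 in limma, by the allele count or by 3 genotype classes, and 3 had an unadjusted p under 0.05 (of all probe sets, 0.00888% passed and 2.99% had such a p). These 3 were the fibrinogen chains. Their changes per B allele were 0.16 ± 0.049 for *Fgb*, 0.077 ± 0.032 for *Fga* and 0.086 ± 0.036 for *Fgg* (SE, unadjusted p = 0.0022, 0.019 and 0.021, adjusted p about 1). The means of *Fgb* were 12.37 (SD 0.176), 12.53 (SD 0.287) and 12.68 (SD 0.341) in A homozygotes, heterozygotes and B homozygotes. These chains vary together, so the 3 values are not separate evidence.

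Many members varied together across the mice. The 496 pairs of 32 genes, with 1 probe set each, had a mean Pearson r of 0.20, against 0.02 over all pairs of MOE430A probe sets. Of the pairs, 71 had r of 0.5 or greater, 16 had 0.7 or greater, and none had -0.5 or lower. The shares of all MOE430A pairs at these values are not given here, so how unusual the counts are was not tested. The pairs share arrays and mice, and the extremes are named as a description. *Fgb* and *Fgg* had r = 0.91 (rho = 0.87), *F5* (a cofactor) and *F9* had r = 0.81 (rho = 0.78), and *C8a* and *C8b* had r = 0.80 (rho = 0.78). Dropping the pair of mice most distant in the first gene gave 0.89, 0.78 and 0.76. The lowest were *C6* with *F2* (r = -0.43, rho = -0.49), *C8g* with *Pros1* (r = -0.35, rho = -0.36) and *C6* with *Cfb* (r = -0.33, rho = -0.40), and these were -0.47, -0.37 and -0.37 without such mice. *C6* was higher in males, whereas *F2* and *Cfb* had lower means in males (log2 differences -0.094 and -0.17, limma adjusted p = 0.17 and 0.16). The part of sex in the r of *C6* with them was not tested.

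Several of the closest pairs are neighbours in the genome. In the RefSeq annotation no protein-coding gene lies between *C8a* and *C8b*, between *F7* and *F10* (r = 0.67), between *Fga* and *Fgb* (r = 0.72) or between *F11* and *Klkb1*, the gene of prekallikrein (r = 0.30, and 0.49 without the 6 mice with an array apart). *C2* and *Cfb*, which code for related proteases, are also adjacent. Their r was 0.42 in all mice, 0.22 without those 6, 0.72 in females and 0.27 in males. Pairs on different chromosomes could be as close. *C9*, which is not adjacent to them, had r = 0.72 with *C8a* and 0.71 with *C8b*, and *C6* had r = 0.73 with *C8b* (0.59 in females and 0.69 in males). In contrast *C8g*, whose product joins those of *C8a* and *C8b* in 1 protein, had r of -0.24 and -0.04 with them. Another set joined *F5*, *F9*, *Pros1* (protein S), *F13b* and *Cfi*, the gene of complement factor I, with r from 0.50 to 0.81 among their 10 pairs. This set was picked for its r in these data, so the high values are a description and no test. In females *F13b* had r = 0.82 with *Cfi*, 0.71 with *Pros1* and 0.83 with *F9*, against 0.07, 0.23 and 0.39 in males. With *F5* its r was 0.84 in females and 0.60 in males. *Hc* stood apart from all of these, with no r above 0.25 in size.

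**Figure D5:**
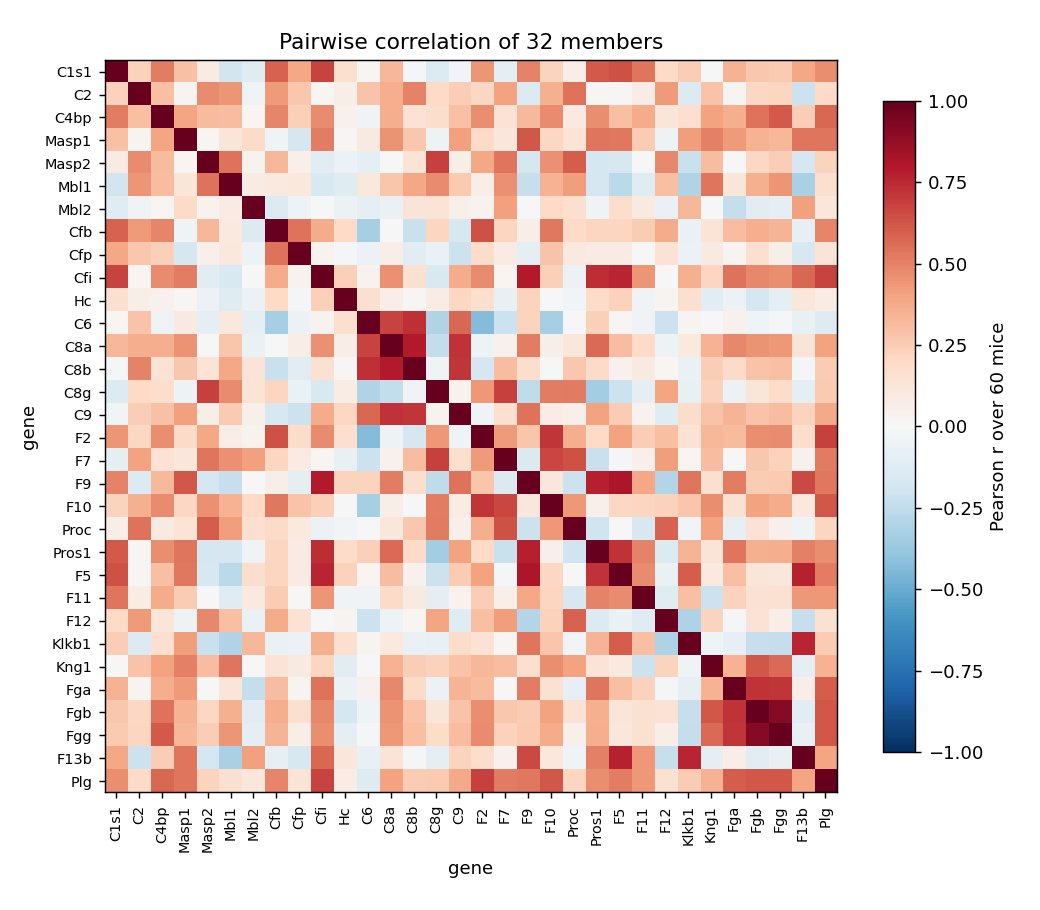
Pearson r over 60 mice (colour, from -1 to 1) for each pair of 32 genes, 1 probe set each, ordered by role. The fibrinogen chains (r from 0.72 to 0.91) and *C6*, *C8a*, *C8b* and *C9* form red blocks, and the row of *Hc* is pale.

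Probe sets of the same gene did not always vary together. The probe sets of *F5* had r = 0.89, and those of *C2* on MOE430B had r = 0.91 with each other and 0.63 to 0.64 with the MOE430A probe set. Of the *F10* probe sets, the 2 low ones had r = 0.84, and they had r of 0.15 to 0.22 with the high one. The highest *Masp1* probe set had r between -0.11 and 0.11 with the other 4, and the *Cfp* probe sets of the 2 array types had r = -0.10.

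A list of 46 other complement and coagulation genes (inhibitors, receptors and C1q chains among them) was set beside the members, and 38 had 67 probe sets. Of the 66 on autosomes, 7 met the own-chromosome rule, against 2.97% of all autosomal probe sets. The highest LOD score was 31.9 for *A2m*, the gene of alpha-2-macroglobulin, on Chromosome 6, but it rested on 1 mouse at 7.97, and Haley-Knott regression gave 0.94. *Lman1*, which helps export factors V and VIII from the cell, had 18.7 on Chromosome 18, with a mean of 6.29 in 16 A homozygotes (SD 0.237), 5.90 in 31 heterozygotes (SD 0.236) and 5.27 in 13 B homozygotes (SD 0.122). This was 1 of 5 *Lman1* probe sets, and the other 4 had own-chromosome LOD scores of 0.27 to 2.41. *Cd59a*, which blocks the pore, had 9.06 on Chromosome 2, at 70 cM, with means of 9.65, 9.45 and 9.24. Its other probe set peaked at 30 cM (LOD score 4.39). Between the sexes, 3 probe sets were higher in males and 2 in females, against 0.411% and 1.03% of all probe sets. All 3 were of *Clu*, which had another probe set that did not pass (adjusted p = 0.33). Clusterin binds the terminal complex. The 3 had log2 differences of 0.24 to 0.27 (adjusted p of 0.0016 to 0.013). The 2 were *Serpinc1*, the gene of antithrombin (-0.11 ± 0.029, adjusted p = 0.024), and 1 of 2 probe sets of *Proz*, protein Z (-0.27 ± 0.073, adjusted p = 0.036). No probe set of this list passed for liver triglyceride, which is near the 0.147% of all that passed.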

How the data were processed

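Liver RNA was hybridised to 60 MOE430A and 60 MOE430B arrays. The authors used MAS5 for the cell intensities and RMA for the summary, per the submitters' processing notes, and deposited log2 values. Each array type was normalized by itself, so no level was compared across types. Phenotypes and genotypes (letters A and B at 194 markers, 6.88% missing) were used as deposited, and insulin was turned to log10 here. A genotype table of more mice was not used here.

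Every transcript went through EM interval mapping (after R/qtl, which the study's methods name) at 545 test points, the markers and 5-cM steps on 19 autosomes, with a genotyping error rate of 0.0001 and the LOD threshold of 3.4. Own-chromosome p values came from 5 permutations of the mice pooled by chromosome and were adjusted by Benjamini-Hochberg over 33,588 probe sets. Sex, phenotypes and allele counts were fitted with limma 3.58.1 in R 4.3.3 over all 45,037 probe sets, at an adjusted p under 0.05. Single correlations had 100,000 permutations, two-sided. For group means a mouse took its most likely genotype. A mouse had an array apart when its median correlation with its array type was under the typical value by over 3 MAD. Python 3.11.15 (numpy 2.4.6, scipy 1.17.1, pandas 2.3.3, numba 0.67.0, matplotlib 3.10.9) was used, and the scan and limma fit were tested on simulated data.

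The members, the other gene lists and the marker lists were chosen with earlier results of these data known. Named genes were the own-chromosome mappers, *Hc*, sex and phenotype calls, the 3 highest and lowest levels and pairs, and, of the other genes, the 3 highest own-chromosome LOD scores and largest sex differences. Members with a peak elsewhere, neighbouring pairs and values just short of a threshold were named after their values were seen. So were the set of *F5*, *F9*, *Pros1*, *F13b* and *Cfi* and its r by sex. Alternatives changed the mapping method, test points, markers, covariates, mice, thresholds, the filter on low values, the gene names, the limma prior and the phenotype scale.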

Additional observations from a re-analysis of the deposited data

How the results depend on the processing

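No paired analysis was possible because the MOE430A and MOE430B arrays were normalized apart, and no test compared levels between these array types. The numbers that the arrays share name the same mouse. They served to match mice for the r of *C2* and *Cfp* probe sets between array types. The own-chromosome count of 6 stayed within 4 to 6 under all alternatives: *F11* left it when the first principal component was fitted (LOD score 3.13) and without the mice with an array apart (2.92), and *Masp2* and *F11* left it at a threshold of 5. The sex count was 3, of the same genes, under every alternative except that without the mice with an array apart it was 6. The phenotype count of 1 became 2 when the first principal component was fitted and 2 among probe sets above the median level (*Plg* in both), and 0 in females alone and 0 in males alone, where fewer mice were tested. The count at the *Hc* locus stayed at 0. The mean pairwise r of 0.20 was 0.19 without the mice with an array apart and 0.16 with the first principal component removed. Of 116 values of single probe sets under alternatives, 105 stayed on their side of the threshold and 11 fell below it. The 105 include peaks that moved to another chromosome, those of *C8b* (Chromosome 12, without the mice with an array apart) and *C9* (Chromosome 5, with sex as a covariate). The fits without the male high in pancreatic markers, and the changes to the pairwise r, were chosen after seeing the data. The marker spacing and the 60 mice limit how finely a peak can be placed.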

Other observations

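The fibrinogen chains moved with the acute phase transcripts. These averaged 11.51 in the 6 mice with an array apart and 10.55 in the other 54, so those mice may weigh on the values below. The mean level of 12 acute phase probe sets correlated with *Fgb* at r = 0.65, with *Fgg* at 0.63 and with *Fga* at 0.46 across the 60 mice. The relation was not particular to fibrinogen, since the same mean had r = 0.41 with *C8a* and 0.40 with *Mbl1*. It had r = 0.27 with *C8b*, 0.23 with *F12*, 0.18 with *F7*, 0.04 with *C6*, -0.01 with *Hc* and -0.31 with *Mbl2*. The r of this mean without the 6 mice with an array apart is not given here. Without the 6 mice with an array apart, r was 0.88 for *Fgb* with *Fgg*, 0.62 for *Fga* with *Fgb* and 0.61 for *Fga* with *Fgg*, against 0.91, 0.72 and 0.72 in all mice. The first principal component of MOE430A held 19.6% of the variance of that array type, and 8 of the 44 members had a correlation of 0.5 or greater in size with the component of their array type, among them *C4bp* (0.62) and *F2* (0.62). The median size of the correlation was 0.28 for the members and 0.40 for all MOE430A probe sets.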
